A study of Mus musculus with 5 samples.

Results

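The genes described here are 47 mouse genes that encode chromatin regulators. They comprise 18 ATP-dependent nucleosome remodellers and their subunits, 20 histone-modifying enzymes and partners of their complexes, 7 genes of DNA methylation and demethylation, and 2 others, Trim28 and Ctcf. They were chosen by what they encode, from 21924 protein-coding genes of the annotation, and the rule uses no peak. Each was followed through 3 lists of ChIP-seq peaks, first by the gene name that each peak carries in the list and then by the position of each peak on the genome.

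The lists came from cells of the 46C mouse embryonic stem cell line taken at the cardiac progenitor (CP) stage of differentiation in culture. Zhx1-KO cells, made with CRISPR/Cas9 guides at the transcription start and stop sites of Zhx1, gave 1 list, for hnRNPA1. Control cells without that deletion (46C-Ctrl) gave 2 lists, 1 for hnRNPA1 and 1 for ZHX1. Each list stands for 1 library, so no value below has a spread between replicates, no test was possible, and intervals cover counting error only. Whether the Zhx1-KO line is a single clone is not given in the sources used here, and the peak lists cannot show the loss of ZHX1 itself. Input libraries of both genotypes are described in the labels and were not used here.

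Nucleosome remodellers use ATP to slide, eject or exchange nucleosomes, and the SWI/SNF, ISWI and CHD families differ in the nucleosomes they act on and the complexes they form. Histone enzymes add or remove methyl and acetyl groups on histone tails, and DNA methyltransferases and TET dioxygenases write and oxidise methyl groups on cytosine. Several of these genes, such as the SWI/SNF ATPase Smarca4, the Polycomb methyltransferase Ezh2 and the class IIa deacetylases that bind MEF2, are known for roles in heart development. ZHX1 is a zinc-finger and homeobox protein known to bind the NF-Y factor, which reads CCAAT. hnRNPA1 is an RNA-binding protein known to bind UAGGG in RNA, which is TAGGG on the DNA strand of the same sense.

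The Zhx1-KO hnRNPA1 list held 51545 peaks, the control hnRNPA1 list 14662 and the control ZHX1 list 23244. Median peak widths were 271 bp in the Zhx1-KO hnRNPA1 list, 257 bp in the control hnRNPA1 list and 259 bp in the control ZHX1 list. No height or read count stands beside any peak, so depth cannot be read from the lists, and a gene without a peak is not shown to be unbound. The unequal lengths of the lists bear on every count below, and counts over the 47 genes are therefore given with the share of all protein-coding genes under the same rule.

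Positions that 2 or 3 lists shared at these genes are printed first, because only at them do peaks of different libraries cover the same bases. Each is the overlap of the peaks, 5′ to 3′ on the plus strand of GRCm38 (mm10), with any CCAAT or TAGGG (on either strand, so also ATTGG or CCCTA) in capitals.
Smarca5 start, all 3 lists, chr8:80739405-80739655: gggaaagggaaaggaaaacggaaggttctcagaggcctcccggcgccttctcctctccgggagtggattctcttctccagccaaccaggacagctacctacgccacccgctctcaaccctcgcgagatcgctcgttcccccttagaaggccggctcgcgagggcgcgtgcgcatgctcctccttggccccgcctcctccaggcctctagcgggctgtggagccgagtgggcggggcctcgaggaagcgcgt
Smarca5 downstream, both control lists, chr8:80684781-80685008: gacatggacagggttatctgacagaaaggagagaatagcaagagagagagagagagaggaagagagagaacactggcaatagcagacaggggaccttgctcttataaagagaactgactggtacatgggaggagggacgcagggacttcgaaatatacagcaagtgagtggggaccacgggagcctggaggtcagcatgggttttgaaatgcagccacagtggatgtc
Chd3, both control lists, chr11:69352622-69352705: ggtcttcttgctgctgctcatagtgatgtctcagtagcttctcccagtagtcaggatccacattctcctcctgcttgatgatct
Ehmt2, both control lists, chr17:34911247-34911451: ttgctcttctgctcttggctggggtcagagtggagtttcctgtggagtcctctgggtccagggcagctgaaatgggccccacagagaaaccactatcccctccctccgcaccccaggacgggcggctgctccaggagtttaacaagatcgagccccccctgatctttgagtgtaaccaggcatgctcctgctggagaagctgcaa
Uhrf1, both control lists, chr17:56319845-56319944: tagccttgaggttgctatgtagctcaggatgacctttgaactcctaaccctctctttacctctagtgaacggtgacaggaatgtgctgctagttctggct
Tet2 upstream, Zhx1-KO hnRNPA1 and control ZHX1, chr3:133603440-133603456: tgcttcccaggtgtctt
None of these 6 sequences held CCAAT or TAGGG on either strand. Among peaks at least as wide as the Smarca5 start overlap (251 bp), 33.7% held CCAAT and 31.4% held TAGGG in a central window of that length, and in windows as short as the Chd3 overlap (84 bp) the shares were 12.6% and 11.7%. A match or its absence describes these letters only.

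Peaks at the annotated start of a gene are printed for 3 of the members where a peak of 1 list covered that start or lay within 0.2 kb of it. They are examples only, since other members, such as Smarcb1 and Chd1, also had such a peak. CpG content was not measured over the starts of all members.
Ehmt2 start, Zhx1-KO hnRNPA1, chr17:34898295-34898518: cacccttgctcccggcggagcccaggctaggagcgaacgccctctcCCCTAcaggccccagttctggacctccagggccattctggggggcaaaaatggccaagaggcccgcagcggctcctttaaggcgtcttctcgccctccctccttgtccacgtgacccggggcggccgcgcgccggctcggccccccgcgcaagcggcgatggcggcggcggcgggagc
Chd4 start, Zhx1-KO hnRNPA1, chr6:125096180-125096423: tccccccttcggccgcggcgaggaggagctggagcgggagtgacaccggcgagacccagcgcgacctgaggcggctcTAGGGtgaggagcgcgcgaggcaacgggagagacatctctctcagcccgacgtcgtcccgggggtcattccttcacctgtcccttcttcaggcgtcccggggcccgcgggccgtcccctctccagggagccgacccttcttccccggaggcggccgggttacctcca
Ep300 start, control ZHX1, chr15:81585412-81585639: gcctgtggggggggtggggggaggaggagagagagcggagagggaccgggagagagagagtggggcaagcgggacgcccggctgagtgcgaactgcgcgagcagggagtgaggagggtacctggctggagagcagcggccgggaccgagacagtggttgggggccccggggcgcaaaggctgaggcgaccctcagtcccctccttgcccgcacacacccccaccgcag
The Ehmt2 start was 72.8% G and C with 24 CpG dinucleotides, the Chd4 start 71.3% with 27, and the Ep300 start 71.9% with 16. The Smarca5 start overlap was 66.5% with 23 CpG dinucleotides, whereas the Chd3 overlap, in coding sequence, was 48.8% with 0. The Ehmt2 and Chd4 starts each held 1 TAGGG and no CCAAT, and the Ep300 start held neither.

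Smarca5, the ATPase of ISWI complexes that space nucleosomes, was the one chromatin regulator at which all 3 lists overlapped. The peak lay at chr8:80739388-80739666 in the Zhx1-KO hnRNPA1 list, at chr8:80739405-80739843 in the control hnRNPA1 list and at chr8:80739368-80739655 in the control ZHX1 list. All 3 covered the annotated start of Smarca5, and their common stretch reached 158 bp upstream of it. The sequence there is not unique: a 32-base word of the Zhx1-KO hnRNPA1 peak occurred a median of 3 times in the genome, of the control hnRNPA1 peak 2 times and of the control ZHX1 peak 3 times. Of the 220 words in the common stretch, 23.6 to 54.5% also occurred at each of 6 places on chromosome 4, outside protein-coding genes, and no list had a peak at any of those places. A second shared position lay downstream of Smarca5, 54.5 kb from its start and inside the neighbouring gene Frem3, at chr8:80684666-80685009 in the control hnRNPA1 list and chr8:80684781-80685008 in the control ZHX1 list. No Zhx1-KO hnRNPA1 peak overlapped it. The remaining peaks named Smarca5 were upstream, 3.49 and 34.2 kb away in the Zhx1-KO hnRNPA1 list and 31.5 and 69.1 kb away in the control ZHX1 list.

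Chd3, an ATPase of the NuRD complex, carried a position shared by both control lists in its coding region. The Zhx1-KO hnRNPA1 list had 0 peaks inside Chd3, against 1 in the control hnRNPA1 list, and its nearest peak was 2.18 kb upstream of the gene. The control hnRNPA1 peak, chr11:69352483-69352705, and the control ZHX1 peak, chr11:69352622-69352849, overlapped by 84 bp, 1.76 and 1.62 kb from an internal transcription start and over 16 kb from the start of the gene. A further control ZHX1 peak lay in a coding exon at chr11:69346658-69346885. All 3 peaks inside Chd3 carried the name Rnf227 in the lists, so a search by name missed them.

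Ehmt2 (G9a), which methylates lysine 9 of histone H3, had peaks in all 3 lists, with the Zhx1-KO hnRNPA1 peak apart from the control peaks. The Zhx1-KO hnRNPA1 list had its 1 peak on the start of the gene, at chr17:34898295-34898518. The control hnRNPA1 list had peaks at chr17:34909594-34909938 and chr17:34911247-34911565, 11.1 and 12.8 kb into the gene. The control ZHX1 peak at chr17:34911115-34911451 overlapped the second of these by 205 bp, 0.14 kb from an internal transcription start. Control peaks in Ehmt2 were named Slc44a4 in the lists, whereas the Zhx1-KO hnRNPA1 peak was named Ehmt2.

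Uhrf1, which brings DNMT1 to newly replicated DNA, carried neighbouring peaks of all 3 lists within 1 kb, none under its own name. The Zhx1-KO hnRNPA1 peak lay at chr17:56320305-56320573, the control hnRNPA1 peak at chr17:56319845-56320128 and the control ZHX1 peak at chr17:56319618-56319944. Both control peaks overlapped by 100 bp. The Zhx1-KO peak was 176 bp from the control hnRNPA1 peak and 360 bp from the control ZHX1 peak, and it overlapped neither. It was also 2.28 kb from the nearest transcription start, against 1.82 kb for the control hnRNPA1 peak and 1.59 kb for the control ZHX1 peak, so a window of 2 kb counts Uhrf1 in both control lists and not in the Zhx1-KO list. All of these peaks carried the name Kdm4b.

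Tet2, which oxidises 5-methylcytosine, shared 17 bp between a Zhx1-KO hnRNPA1 peak (chr3:133603440-133603663) and a control ZHX1 peak (chr3:133602981-133603456), about 58.3 and 57.8 kb upstream of the gene. This was the only overlap at these genes between those lists apart from the Smarca5 start.

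**Figure D1:**
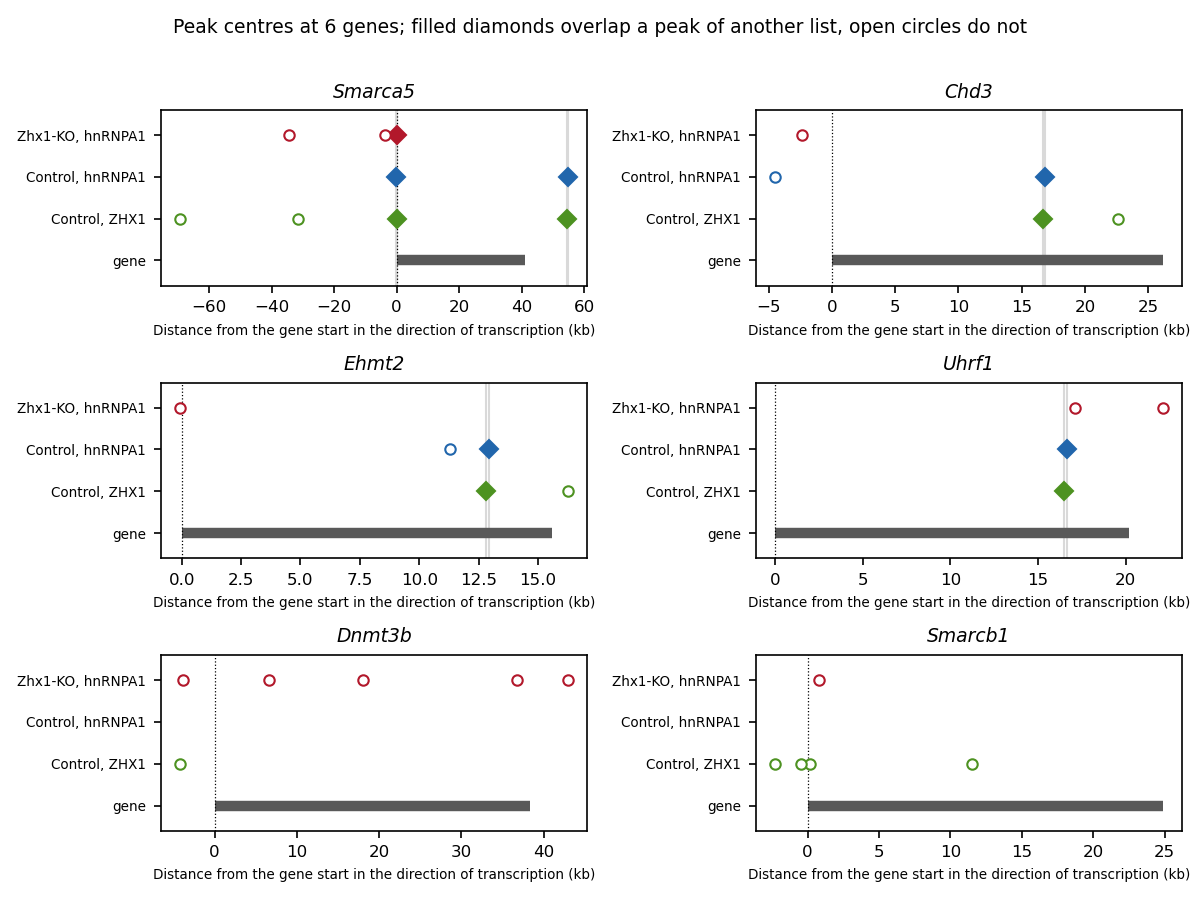
Peak centres (points) against distance from the annotated gene start in kb, along transcription, for 6 genes and the 3 lists, with the gene body as a grey bar. Filled diamonds mark peaks that overlap a peak of another list by at least 1 bp: all 3 lists at the Smarca5 start, and both control lists at Smarca5 downstream, Chd3, Ehmt2 and Uhrf1.

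Over all member peaks, meaning peaks that carry the name of 1 of the 47 genes or lie inside it, overlap was rare. Of 46 control hnRNPA1 member peaks, 5 (10.9%, Wilson 95% interval 4.73 to 23.0) overlapped a control ZHX1 peak, and 4.12% of all control hnRNPA1 peaks did. Taken from the other list, 5 of 69 control ZHX1 member peaks (7.25%, 3.13 to 15.9) overlapped a control hnRNPA1 peak, beside 2.6% of all control ZHX1 peaks. Both intervals exclude the share of all peaks, but they rest on 5 overlaps, of which 2 are at Smarca5. Of 133 Zhx1-KO hnRNPA1 member peaks, 1 (0.752%) overlapped a control hnRNPA1 peak, beside 1.26% of all. That is 1 of 46 control hnRNPA1 member peaks (2.17%), beside 4.41% of all. With control ZHX1 peaks, 2 of 133 Zhx1-KO hnRNPA1 member peaks overlapped (1.5%, beside 1.99% of all), which is 2 of 69 control ZHX1 member peaks (2.9%, beside 4.42% of all). The intervals of these last 4 shares include the share of all peaks.

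Peaks of different lists also lay side by side without overlapping. In Arid2, a DNA-binding subunit of the PBAF form of SWI/SNF, a Zhx1-KO hnRNPA1 peak (chr15:96371224-96371683) began 4 bp after a control ZHX1 peak (chr15:96370912-96371219), both in coding sequence. Upstream of Dnmt3b, a de novo DNA methyltransferase, a Zhx1-KO hnRNPA1 peak (chr2:153645469-153645770) and a control ZHX1 peak (chr2:153645163-153645390) were 78 bp apart, about 4 kb before the gene. At the start of Smarcb1, a core SWI/SNF subunit, the gap was 305 bp, and in the first part of Kdm2b 440 bp. Near Tet3 it was 914 bp, and 15.3 and 16.4 kb separated those peaks from the gene. Downstream of Chd7, a Zhx1-KO hnRNPA1 peak and a control hnRNPA1 peak were 620 bp apart. Counted by centres within 1 kb, overlapping peaks included, 7 of 133 Zhx1-KO hnRNPA1 member peaks had a control ZHX1 neighbour. Likewise 3 of 46 control hnRNPA1 member peaks had a Zhx1-KO hnRNPA1 neighbour. Shares of all peaks are given at 10 kb. Within 10 kb the first share was 21.1%, beside 22.6% of all peaks of that list, and the second 34.8%, beside 43.0%. Between the control lists, 32.6% of control hnRNPA1 member peaks had a control ZHX1 neighbour within 10 kb, beside 25.9%.

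Among the remodellers, the 9 SWI/SNF genes all held a Zhx1-KO hnRNPA1 peak inside the gene, 23 peaks in all, whereas 4 held a control hnRNPA1 peak (4 peaks) and 5 a control ZHX1 peak (8 peaks). Of all protein-coding genes, 42.3% held a Zhx1-KO hnRNPA1 peak, 20.4% a control hnRNPA1 peak and 28.1% a control ZHX1 peak. Per 100 kb of SWI/SNF gene this came to 2.15 peaks (exact Poisson 95% interval 1.36 to 3.22) in the Zhx1-KO hnRNPA1 list and 0.373 (0.102 to 0.956) in the control hnRNPA1 list, with 0.747 (0.322 to 1.47) in the control ZHX1 list. Each interval includes the value of all protein-coding genes, which was 2.13 in the Zhx1-KO hnRNPA1 list, 0.64 in the control hnRNPA1 list and 0.996 in the control ZHX1 list. Smarca4, the BRG1 ATPase, had 5 Zhx1-KO hnRNPA1 peaks and 0 control hnRNPA1 peaks inside it, with 1 control ZHX1 peak. Smarca2, its alternative ATPase, had 2 Zhx1-KO hnRNPA1 peaks, 0 control hnRNPA1 peaks and 1 control ZHX1 peak inside it, and 5 more control ZHX1 peaks carried its name 111 to 421 kb upstream. Arid1b, a subunit of the BAF form, had the most peaks inside a remodeller gene: 6 in the Zhx1-KO hnRNPA1 list, 1 in the control hnRNPA1 list and 2 in the control ZHX1 list, all in introns of a gene 353.3 kb long. Arid1a, its paralogue, had 3 Zhx1-KO hnRNPA1 peaks and 1 control hnRNPA1 peak, of which 3 lay in coding exons, and no control ZHX1 peak.

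Smarcb1 was the SWI/SNF gene with most peaks around its start. The control ZHX1 list had peaks at chr10:75921242-75921586, in exon sequence 0.031 kb from the start, at chr10:75921972-75922220, 0.355 kb upstream, and at chr10:75923641-75924111, 2.02 kb upstream, and 1 more in an intron. The Zhx1-KO hnRNPA1 list had 1, at chr10:75920621-75920936, and the control hnRNPA1 list had 0. Smarcd1, an accessory subunit with a short gene of 11.86 kb, had 2 Zhx1-KO hnRNPA1 peaks and 1 control hnRNPA1 peak, each within 2 kb of a transcription start, and 1 of the Zhx1-KO peaks was in sequence present in a median of 2 copies. Its peaks at the start also lie in an overlapping gene model, Gm17349. Pbrm1, the bromodomain subunit of PBAF, held 2 Zhx1-KO hnRNPA1 peaks and 1 control hnRNPA1 peak, and Smarcc1, a scaffold subunit, held 1 Zhx1-KO hnRNPA1 peak. None of these 4 carried the name of its gene, and 2 of those in Pbrm1 also lie in the overlapping gene Smim4.

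The 6 CHD genes held 11 Zhx1-KO hnRNPA1 peaks in 5 genes, 2 control hnRNPA1 peaks in 2 genes and 4 control ZHX1 peaks in 3 genes. Per 100 kb they had 2.29 Zhx1-KO hnRNPA1 peaks (1.14 to 4.1, beside 2.13 over all protein-coding genes). In the control lists they had 0.416 hnRNPA1 peaks (0.0504 to 1.5, beside 0.64) and 0.832 ZHX1 peaks (0.227 to 2.13, beside 0.996). Within 2 kb of a transcription start, 5 of the 6 had a Zhx1-KO hnRNPA1 peak, against 1 in the control hnRNPA1 list, and 1 had a control ZHX1 peak. The shares of all protein-coding genes under that rule were 21.0% in the Zhx1-KO hnRNPA1 list, which is the longest, 6.77% in the control hnRNPA1 list and 12.1% in the control ZHX1 list. For Chd1, which acts on transcribed chromatin, the Zhx1-KO hnRNPA1 peak lay in exon sequence 0.047 kb from the start, at chr17:15705014-15705368, and was the only peak of any list in the gene. For Chd4, the other NuRD ATPase, Zhx1-KO hnRNPA1 peaks lay 0.199 and 1.27 kb from the start of the gene, no control hnRNPA1 peak lay in it, and its control ZHX1 peak was 6.55 kb into the gene. Chd8, a remodeller that binds beta-catenin, had 1 Zhx1-KO hnRNPA1 peak, 0.682 kb from an internal start, and no other. Chd2 had 3 Zhx1-KO hnRNPA1 peaks and 1 control ZHX1 peak, and 1 of the Zhx1-KO peaks was 0.396 kb from an internal start.

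Chd7, the remodeller mutated in CHARGE syndrome, was named by more peaks than any other chromatin regulator here: 11 in the Zhx1-KO hnRNPA1 list, 6 in the control hnRNPA1 list and 2 in the control ZHX1 list. Inside the gene were 4 Zhx1-KO hnRNPA1 peaks, 1 control hnRNPA1 peak and 0 control ZHX1 peaks. The other 14 named peaks were 0.166 to 139 kb outside it, at a median of 30.9 kb. Smarca1, the second ISWI ATPase, was similar by name and not by position: 7 Zhx1-KO hnRNPA1 peaks and 2 control hnRNPA1 peaks carried its name, and 1 Zhx1-KO hnRNPA1 peak was inside the gene. All 9 peaks were in multi-copy sequence, with 312 to 12000 copies of the median word. Atrx, which helps to place histone H3.3 in heterochromatin, had no peak by name or position in any list.

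**Figure D2:**
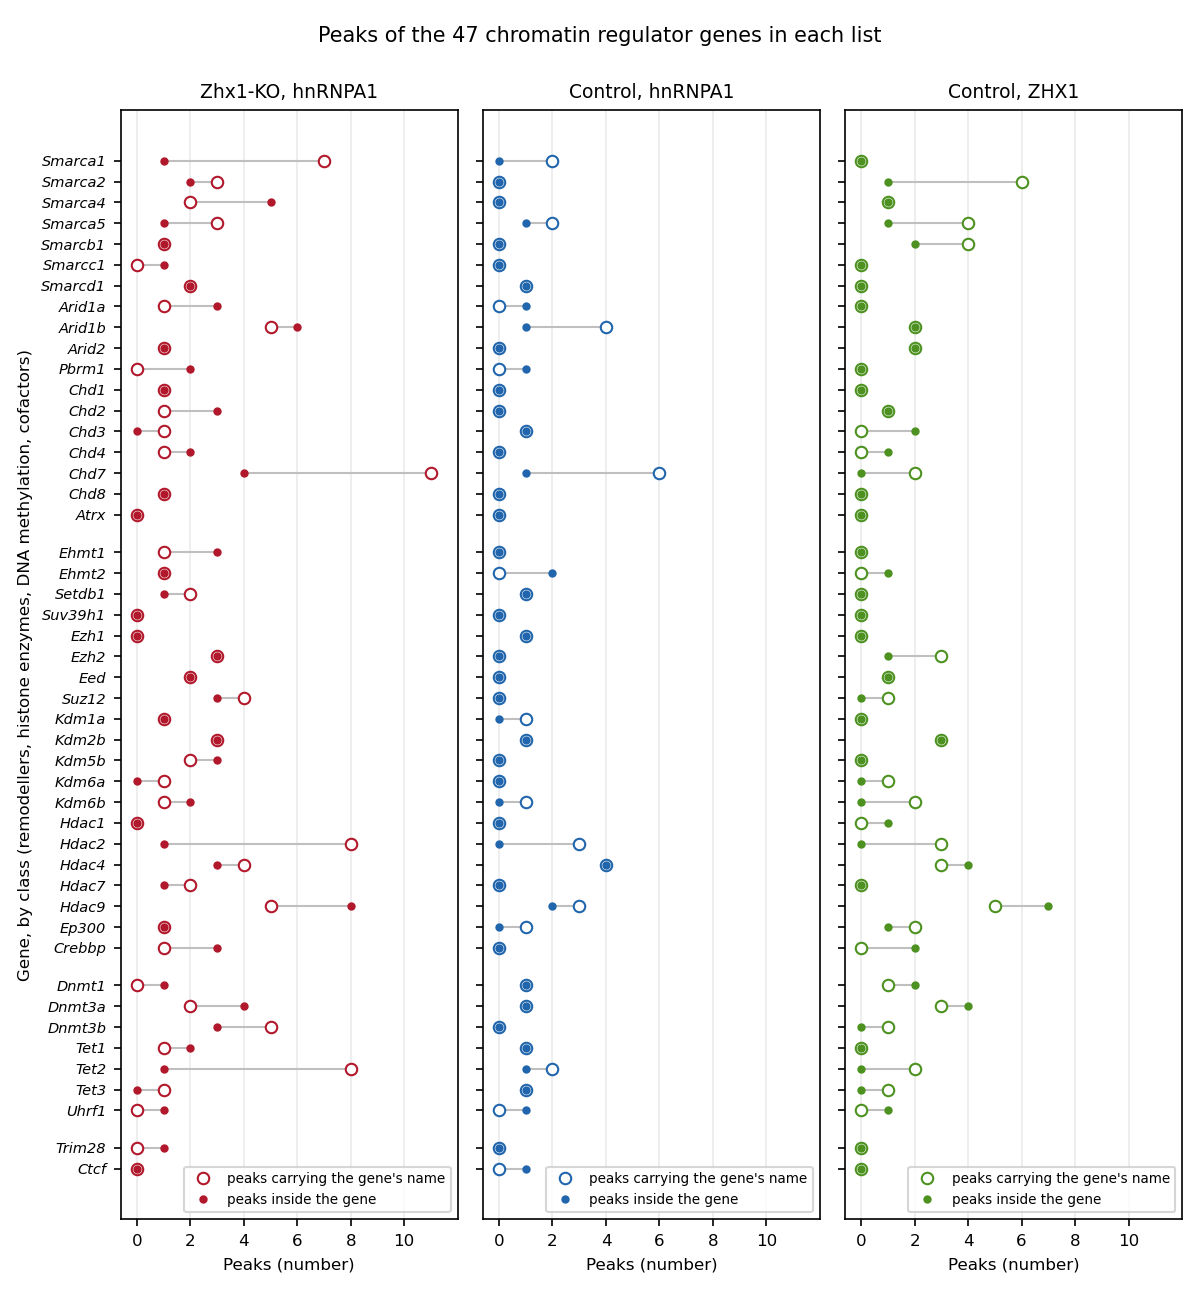
Number of peaks (x axis) for each of the 47 genes (rows, by class) in the 3 lists (panels). Open circles count peaks that carry the gene's name and filled circles peaks inside the gene, and the 2 stand far apart for Chd7 (11 and 4 in the Zhx1-KO hnRNPA1 list), Hdac2 (8 and 1), Tet2 (8 and 1) and Smarca1 (7 and 1).

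Among the histone enzymes, the 4 genes of Polycomb repressive complex 2 held 8 Zhx1-KO hnRNPA1 peaks in 3 genes, against 1 control hnRNPA1 peak, and 2 control ZHX1 peaks. Ezh2, its methyltransferase, held 3 Zhx1-KO hnRNPA1 peaks, 1 of them 0.586 kb from the gene start, 0 control hnRNPA1 peaks and 1 control ZHX1 peak. Eed, which reads the mark that the complex writes, held 2 Zhx1-KO hnRNPA1 peaks, 1 of them 0.53 kb from the start, and 1 control ZHX1 peak. Suz12, a structural subunit, held 3 Zhx1-KO hnRNPA1 peaks and no other. Ezh1, the alternative methyltransferase, differed, with 1 control hnRNPA1 peak and no peak of the other lists. The density over these genes was 4.76 peaks per 100 kb (2.06 to 9.39) in the Zhx1-KO hnRNPA1 list, beside 2.13 over all protein-coding genes, so the interval just includes the value of all genes. In the control hnRNPA1 list it was 0.596 (0.0151 to 3.32), beside 0.64, and in the control ZHX1 list 1.19 (0.144 to 4.3), beside 0.996.

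The H3K9 methyltransferase genes held 5 Zhx1-KO hnRNPA1 peaks, 3 control hnRNPA1 peaks and 1 control ZHX1 peak. Per 100 kb they had 2.6 Zhx1-KO hnRNPA1 peaks (0.843 to 6.06, beside 2.13 over all protein-coding genes). In the control lists they had 1.56 hnRNPA1 peaks (0.321 to 4.55, beside 0.64) and 0.519 ZHX1 peaks (0.0131 to 2.89, beside 0.996). Ehmt1, the partner of Ehmt2, had 3 Zhx1-KO hnRNPA1 peaks, 1 of them covering an internal transcription start, and no control peak. Setdb1, which silences retroelements, had 1 Zhx1-KO hnRNPA1 peak in an intron and 1 control hnRNPA1 peak in a coding exon. Suv39h1, the enzyme of pericentric heterochromatin, had no peak by name or position.

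The 5 demethylase genes held 9 Zhx1-KO hnRNPA1 peaks, 1 control hnRNPA1 peak and 3 control ZHX1 peaks. Kdm2b, which binds unmethylated CpG islands, accounted for 3 Zhx1-KO hnRNPA1 peaks, 1 control hnRNPA1 peak and 3 control ZHX1 peaks of these. Each of its Zhx1-KO hnRNPA1 peaks was within 2 kb of a transcription start, at 0.074, 1.72 and 0.282 kb, and a control ZHX1 peak at chr5:122951725-122952023 covered an internal one. Its control hnRNPA1 peak was 11.7 kb from the nearest start. Kdm5b, which removes methyl groups from lysine 4 of histone H3, had 3 Zhx1-KO hnRNPA1 peaks and no control peak. Kdm6b, an H3K27 demethylase, had 2 Zhx1-KO hnRNPA1 peaks inside the gene, and peaks of the control lists carried its name only outside it, 1 from hnRNPA1 and 2 from ZHX1. Its paralogue Kdm6a had no peak inside the gene, and Kdm1a (LSD1) had 1 Zhx1-KO hnRNPA1 peak. Per 100 kb the demethylase genes had 2.37 Zhx1-KO hnRNPA1 peaks (1.09 to 4.51, beside 2.13 over all protein-coding genes). In the control lists they had 0.264 hnRNPA1 peaks (0.00668 to 1.47, beside 0.64) and 0.791 ZHX1 peaks (0.163 to 2.31, beside 0.996).

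The 5 deacetylase genes held 13 Zhx1-KO hnRNPA1 peaks, 6 control hnRNPA1 peaks and 12 control ZHX1 peaks. Per 100 kb they had 1.05 Zhx1-KO hnRNPA1 peaks (0.557 to 1.79), and that interval lies below the 2.13 of all protein-coding genes. Without Hdac9, which makes up most of their length, the value was 1.34 (0.436 to 3.13), an interval that includes 2.13. In the control lists the 5 genes had 0.483 hnRNPA1 peaks (0.177 to 1.05, beside 0.64) and 0.966 ZHX1 peaks (0.499 to 1.69, beside 0.996). Hdac9, a class IIa deacetylase and the longest gene of the 47 at 869.5 kb, held 8 Zhx1-KO hnRNPA1 peaks, 2 control hnRNPA1 peaks and 7 control ZHX1 peaks, all in introns. Hdac4, of the same class, held 3 Zhx1-KO hnRNPA1 peaks, 4 control hnRNPA1 peaks and 4 control ZHX1 peaks. Hdac7, the third of the class, held 1 Zhx1-KO hnRNPA1 peak, 0.208 kb from an internal start. Hdac2, a class I enzyme, was named by 8 Zhx1-KO hnRNPA1 peaks, 3 control hnRNPA1 peaks and 3 control ZHX1 peaks but held only 1 peak, from the Zhx1-KO hnRNPA1 list, and 6 of the named peaks lay over the upstream gene Hs3st5. Hdac1 held 1 control ZHX1 peak. Of the acetyltransferases, Ep300 held 1 Zhx1-KO hnRNPA1 peak in a coding exon, 0 control hnRNPA1 peaks and 1 control ZHX1 peak in exon sequence 0.061 kb from the start. Crebbp held 3 Zhx1-KO hnRNPA1 peaks, 2 of them in coding exons, 0 control hnRNPA1 peaks and 2 control ZHX1 peaks, 1 of them 0.087 kb from an internal start.

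Among the DNA methylation genes, the 3 methyltransferases held 8 Zhx1-KO hnRNPA1 peaks, 2 control hnRNPA1 peaks and 6 control ZHX1 peaks, and the 3 TET genes held 3 Zhx1-KO hnRNPA1 peaks, 3 control hnRNPA1 peaks and 0 control ZHX1 peaks. Per 100 kb the TET genes had 1.06 Zhx1-KO hnRNPA1 peaks (0.219 to 3.1, beside 2.13 over all protein-coding genes). In the control lists they had 1.06 hnRNPA1 peaks (0.219 to 3.1, beside 0.64) and 0.0 ZHX1 peaks (0.0 to 1.31, beside 0.996). For the methyltransferases the Zhx1-KO hnRNPA1 value was 4.01 (1.73 to 7.91) and the control hnRNPA1 value 1.0 (0.121 to 3.62). The methyltransferases had 3.01 control ZHX1 peaks per 100 kb (1.1 to 6.55), an interval above the 0.996 of all protein-coding genes, and 2.2 (0.266 to 7.94) without Dnmt3a, an interval that includes it. Of 42 values, for 14 families in 3 lists, this and the deacetylase value in the Zhx1-KO hnRNPA1 list were the 2 whose interval excluded that of all genes. Dnmt3a, a de novo methyltransferase, held 4 Zhx1-KO hnRNPA1 peaks, 1 control hnRNPA1 peak and 4 control ZHX1 peaks. Each list had at least 1 of these within 2 kb of a transcription start, at 3 places in the Zhx1-KO hnRNPA1 list, 1 in the control hnRNPA1 list and 1 in the control ZHX1 list, and no pair of them overlapped. Dnmt3b held 3 Zhx1-KO hnRNPA1 peaks and no control peak inside the gene. Dnmt1, the maintenance methyltransferase, held 1 Zhx1-KO hnRNPA1 peak, 1 control hnRNPA1 peak and 2 control ZHX1 peaks. Its Zhx1-KO hnRNPA1 peak was 9.05 kb from the nearest start, against 0.621 kb for the control hnRNPA1 peak and 0.199 kb for the nearer control ZHX1 peak. By name Dnmt1 was the only member present in both control lists and missing from the Zhx1-KO list, because that Zhx1-KO peak carried the name Mir7081. Tet1 held 2 Zhx1-KO hnRNPA1 peaks and 1 control hnRNPA1 peak, Tet2 held 1 Zhx1-KO hnRNPA1 peak and 1 control hnRNPA1 peak, and Tet3 held 0 Zhx1-KO hnRNPA1 peaks and 1 control hnRNPA1 peak, which was 0.806 kb from a start.

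Trim28, the corepressor that KRAB zinc-finger proteins recruit, held 1 Zhx1-KO hnRNPA1 peak, which also lies in the gene Zbtb45 and carried its name. Ctcf, the insulator protein, held 1 control hnRNPA1 peak under another name.

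Set side by side by peak density, the classes did not separate. Inside genes, remodellers had 1.99 Zhx1-KO hnRNPA1 peaks per 100 kb (1.39 to 2.76), histone enzymes 1.79 (1.27 to 2.44) and DNA methylation genes 2.39 (1.23 to 4.17), beside 2.13 over all protein-coding genes. In the control hnRNPA1 list remodellers had 0.387 (0.156 to 0.798), histone enzymes 0.504 (0.252 to 0.902) and DNA methylation genes 1.19 (0.438 to 2.6), beside 0.64. In the control ZHX1 list remodellers had 0.719 (0.383 to 1.23), histone enzymes 0.963 (0.596 to 1.47) and DNA methylation genes 1.39 (0.56 to 2.87), beside 0.996. The 3 intervals overlap in each list and all include the value of all genes. DNA methylation genes had the highest of the 3 values in each list, and in the Zhx1-KO hnRNPA1 and control ZHX1 lists this order turned on single genes. Without the gene with most peaks in each class (Arid1b, Hdac9 and Dnmt3a), DNA methylation genes had 2.03 Zhx1-KO hnRNPA1 peaks per 100 kb, beside 2.06 for remodellers and 2.36 for histone enzymes. In the control ZHX1 list they then had 0.762, beside 0.756 for remodellers and 1.07 for histone enzymes, and in the control hnRNPA1 list 1.27, beside 0.412 for remodellers and 0.686 for histone enzymes. Counted by name instead, remodellers had 0.885 control hnRNPA1 peaks per 100 kb and 1.22 control ZHX1 peaks. Chd7, Arid1b and Smarca1 are among those named by control hnRNPA1 peaks outside them. For control ZHX1 peaks the genes so named are Smarca2, Smarca5, Smarcb1 and Chd7. By share of genes, 6 of 7 DNA methylation genes held a control hnRNPA1 peak (85.7%, 48.7 to 97.4), beside 20.4% of all protein-coding genes. Histone enzymes had 6 of 20 (30.0%, 14.5 to 51.9) and remodellers 7 of 18 (38.9%, 20.3 to 61.4), so the intervals overlap. Near a start the control hnRNPA1 counts were 4 of 7, 2 of 20 and 3 of 18, beside 6.77% of all genes. The Zhx1-KO hnRNPA1 list ran the other way, with 2 of 7, 8 of 20 and 10 of 18, beside 21.0%.

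**Figure D3:**
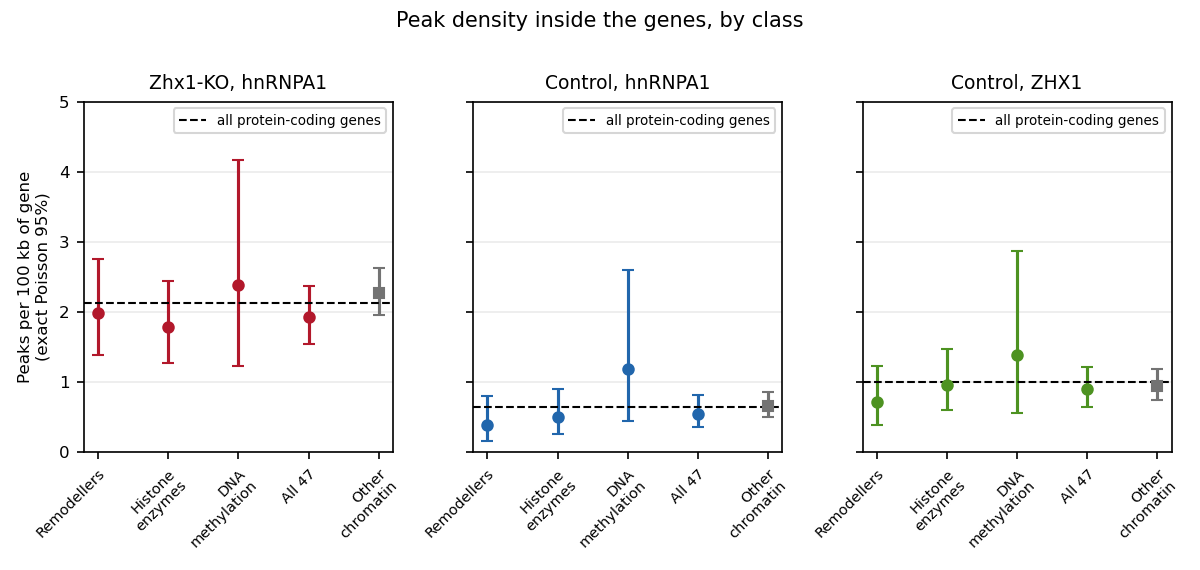
Peaks inside genes per 100 kb of gene (y axis) for each class, all 47 genes and 125 other chromatin genes, by list (panels). Bars are exact Poisson 95% intervals for counting error, and every class interval includes the dashed value of all protein-coding genes, which is 2.13 in the Zhx1-KO hnRNPA1, 0.64 in the control hnRNPA1 and 0.996 in the control ZHX1 panel.

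By name, 37 of the 47 genes (78.7%, Wilson 95% interval 65.1 to 88.0) appeared in the Zhx1-KO hnRNPA1 list, beside 57.7% of all protein-coding genes. In the control hnRNPA1 list 20 did (42.6%, 29.5 to 56.7, beside 31.2%), and in the control ZHX1 list 23 (48.9%, 35.3 to 62.8, beside 40.5%). Among the widest peaks, with the lists made equally long, the Zhx1-KO hnRNPA1 list named 20 (beside 30.4% of all protein-coding genes), the same number as the control hnRNPA1 list, and the control ZHX1 list named 17 (beside 30.6%). In the full lists they were named by 100 Zhx1-KO hnRNPA1 peaks, 38 control hnRNPA1 peaks and 54 control ZHX1 peaks. By position, 39 genes (83.0%, beside 42.3% of all protein-coding genes) held a Zhx1-KO hnRNPA1 peak, 20 (42.6%, beside 20.4%) a control hnRNPA1 peak and 21 (44.7%, beside 28.1%) a control ZHX1 peak. These genes are long, with a median of 66.7 kb against 17.4 kb over all protein-coding genes, and a longer gene has more room for a peak. They held 88 Zhx1-KO hnRNPA1 peaks, where the density of all genes would put 97.5 in their summed length. They held 25 control hnRNPA1 peaks, beside 29.3 at that density, and 41 control ZHX1 peaks, beside 45.5.

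**Figure D4:**
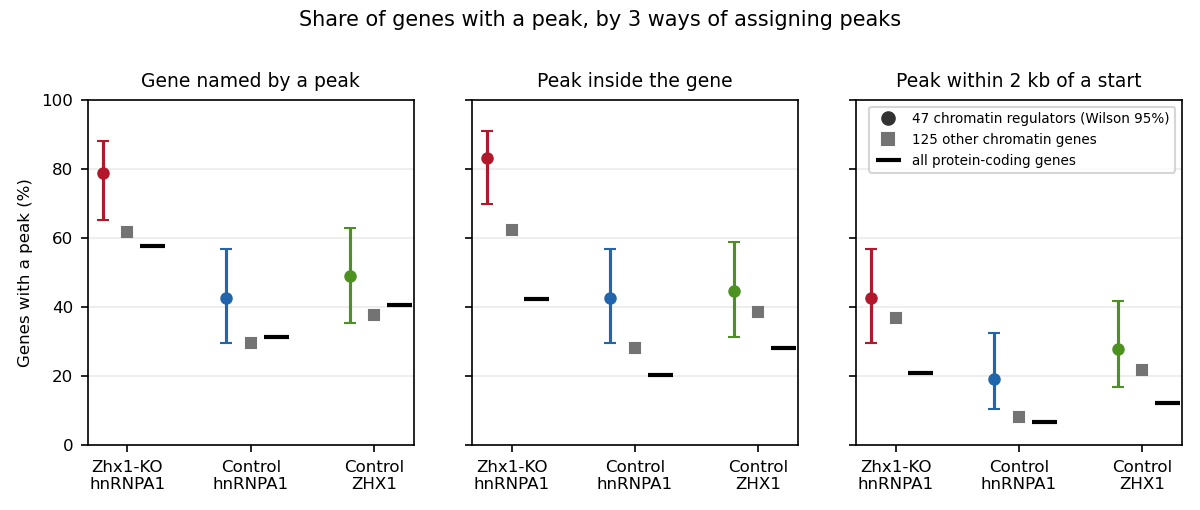
Percent of genes with a peak (y axis) in each list by name, inside the gene, or within 2 kb of a transcription start (panels). Coloured points are the 47 chromatin regulators with Wilson 95% intervals, squares the 125 other chromatin genes and dashes all protein-coding genes, and the points lie above the dashes in every panel, from 78.7% beside 57.7% to 19.1% beside 6.77%.

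Within 2 kb of any annotated transcription start, 20 genes (42.6%, beside 21.0% of all protein-coding genes) had a Zhx1-KO hnRNPA1 peak, 9 (19.1%, beside 6.77%) a control hnRNPA1 peak and 13 (27.7%, beside 12.1%) a control ZHX1 peak. The same limit holds here: these genes have a median of 7 annotated starts against 3, and 19.4 kb of start windows per gene against 8.43 kb. Per 100 kb of window they had 3.19 Zhx1-KO hnRNPA1 peaks (2.13 to 4.58, beside 2.97 over all protein-coding genes), 1.1 control hnRNPA1 peaks (0.527 to 2.02, beside 0.861) and 1.98 control ZHX1 peaks (1.17 to 3.13, beside 1.58). The value of all genes was inside each interval. Around the annotated start of the gene alone, 10 genes (21.3%, beside 12.4% of all protein-coding genes) had a Zhx1-KO hnRNPA1 peak, 2 (4.26%, beside 3.29%) a control hnRNPA1 peak and 4 (8.51%, beside 7.13%) a control ZHX1 peak.

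Across the lists by name, 12 genes (25.5%, beside 17.9% of all protein-coding genes) were in all 3: Smarca5, Arid1b, Chd7, Kdm2b, Kdm6b, Hdac2, Hdac4, Hdac9, Ep300, Dnmt3a, Tet2 and Tet3. Dnmt1 was the 1 gene in both control lists and not in the Zhx1-KO list (2.13%, beside 2.07%). With the lists made equally long, 6 genes were in all 3 (12.8%, beside 10.1%) and 5 in both control lists and not in the Zhx1-KO list (10.6%, beside 5.85%). By name, no gene was in the control ZHX1 list alone (0.0%, beside 6.35%). Inside the gene 1 was, Hdac1 (2.13%, beside 7.2%), and near a transcription start 3 were, Hdac1, Hdac4 and Ep300 (6.38%, beside 7.3%). By position inside the gene, 9 were in all 3 lists (19.1%, beside 9.25%), 13 in the Zhx1-KO hnRNPA1 list alone (27.7%, beside 17.7%) and 1, Chd3, in both control lists only (2.13%, beside 1.8%). Near a transcription start, Smarca5, Ehmt2 and Dnmt3a were in all 3 lists (3 genes, 6.38%, beside 0.575%), and 12 were in the Zhx1-KO hnRNPA1 list alone (25.5%, beside 15.5%). Chd3, Dnmt1 and Uhrf1 had such a peak in both control lists and none in the Zhx1-KO hnRNPA1 list (3 genes, 6.38%, beside 0.958%). Of the 6 members with such a peak in both control lists, these 3 lacked one in the Zhx1-KO hnRNPA1 list. Of all protein-coding genes with such a peak in both control lists, 210 of 336 (62.5%) lacked one. Absence from the Zhx1-KO list was therefore not more frequent among these 6 members, which are few. Dnmt1 and Uhrf1 each held a Zhx1-KO hnRNPA1 peak elsewhere in the gene, the one in Uhrf1 176 bp from a control peak, and the Zhx1-KO peak of Chd3 was 2.18 kb upstream. The start windows of these genes are larger than those of all genes, as given above.

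The name in a list and the position of the peak often disagreed. Of the 192 peaks named for a chromatin regulator, 98 (51.0%) lay inside the gene, beside 36.9% of all peaks named for a protein-coding gene, and 94 lay outside at a median of 42.7 kb and up to 460 kb. Of those outside, 30 were more than 100 kb away and 18 lay over another protein-coding gene. The share inside is not adjusted for gene length, which has a median of 66.7 kb here against 17.4 kb over all protein-coding genes. Conversely, 56 of the 154 peaks inside these genes carried another name. The nearest RefSeq transcription start gave the deposited name for 169 of the 192 peaks (88.0%) and for 91.0% of all peaks. Smarcc1, Pbrm1, Hdac1, Uhrf1, Trim28 and Ctcf held a peak although no list named them, which leaves Atrx and Suv39h1 without any.

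**Figure D5:**
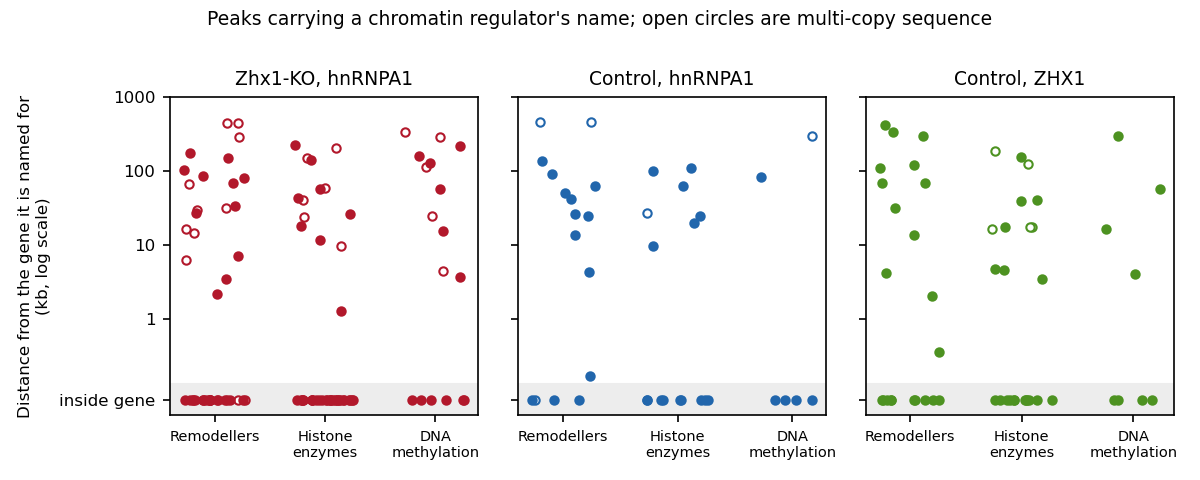
Distance in kb (log scale) from the gene it is named for to each peak named for a remodeller, histone enzyme or DNA methylation gene, by list (panels), with peaks inside the gene in the grey band. Open circles are peaks in multi-copy sequence, and the farthest peaks, up to 460 kb away, include the Smarca1 peaks.

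Both Atrx and Suv39h1 lie on the X chromosome, as do Smarca1 and Kdm6a. Together these 4 genes, 346.3 kb long, held 1 Zhx1-KO hnRNPA1 peak, 0 control hnRNPA1 peaks and 0 control ZHX1 peaks. Protein-coding genes on X had 0.317 Zhx1-KO hnRNPA1 peaks per 100 kb, 0.0393 control hnRNPA1 peaks and 0.107 control ZHX1 peaks, and protein-coding genes on autosomes had 2.22 Zhx1-KO hnRNPA1 peaks, 0.669 control hnRNPA1 peaks and 1.04 control ZHX1 peaks. At the density of X, the 4 genes would hold 1.1 Zhx1-KO hnRNPA1 peaks, 0.136 control hnRNPA1 peaks and 0.37 control ZHX1 peaks.

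Within the genes, most peaks were intronic. Peak centres lay in coding sequence in 12 of 88 Zhx1-KO hnRNPA1 peaks (13.6%, 7.98 to 22.3, beside 8.37% over all protein-coding genes), in 4 of 25 control hnRNPA1 peaks (16.0%, 6.4 to 34.7, beside 6.36%) and in 4 of 41 control ZHX1 peaks (9.76%, 3.86 to 22.5, beside 7.19%). Only the control hnRNPA1 interval excludes the value of all genes, and only just (6.4 against 6.36), with 4 peaks, in Arid1a, Chd3, Ehmt2 and Setdb1. The share of member peaks in multi-copy sequence was below that of each list. It was 26 of 133 Zhx1-KO hnRNPA1 member peaks (19.5%, beside 31.4% of that list) and 7 of 46 control hnRNPA1 (15.2%, beside 24.4%). For control ZHX1 it was 8 of 69 member peaks (11.6%, beside 25.2%). No interval was computed for these shares, which rest on few peaks in the control lists. TAGGG, on either strand, occurred in 39.8% (31.9 to 48.3) of Zhx1-KO hnRNPA1 member peaks, beside 35.3% of that list. It occurred in 21.7% (12.3 to 35.6) of control hnRNPA1 member peaks, beside 35.0%, and in 23.2% (14.8 to 34.4) of control ZHX1 member peaks, beside 34.5%. CCAAT occurred in 32.3% (25.0 to 40.7) of Zhx1-KO hnRNPA1 member peaks, beside 38.2%, in 28.3% (17.3 to 42.5) of control hnRNPA1 member peaks, beside 36.3%, and in 26.1% (17.2 to 37.5) of control ZHX1 member peaks, beside 36.4%. Only the control ZHX1 share of TAGGG has an interval that excludes its list, and only just (34.4 against 34.5). Both narrow exclusions come from several intervals read here. Width bears on such shares, and many peaks had the smallest width of their list. These were 24.1% of Zhx1-KO hnRNPA1 member peaks (224 bp, beside 28.0% of that list), 43.5% of control hnRNPA1 member peaks (223 bp, beside 33.7%) and 37.7% of control ZHX1 member peaks (228 bp, beside 36.4%).

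A list of 125 other genes of chromatin complexes, all found in the annotation, gave a measure of how far the 47 resemble their relatives. By name, 61.6% of them were in the Zhx1-KO hnRNPA1 list, 29.6% in the control hnRNPA1 list and 37.6% in the control ZHX1 list. Inside genes they had 2.27 Zhx1-KO hnRNPA1 peaks per 100 kb, 0.661 control hnRNPA1 peaks and 0.943 control ZHX1 peaks, and their median length was 43.3 kb. Near a transcription start, 0 of them were in both control lists and not in the Zhx1-KO hnRNPA1 list. Only 2 (1.6%) had such a peak in both control lists, and these were in all 3 lists, too few to compare with the 47. Genes with positions shared between lists included Chd6, Hdac11, Jarid2, Kat6a, Kdm4b, Kmt5b, Mbd2 and Stag1. Kmt5b, an H4K20 methyltransferase, had the longest of them, 436 bp between a Zhx1-KO hnRNPA1 peak (chr19:3768043-3768682) and a control ZHX1 peak (chr19:3768098-3768533) near a transcription start. The position at Stag1 was in sequence repeated about 12000 times, and the one at Kdm4b is the Uhrf1 position described above.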

How the data were processed

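Chromatin of CP-stage cells was fixed with formaldehyde, sonicated and immunoprecipitated with antibodies to ZHX1 or hnRNPA1. By the methods and labels, the authors trimmed reads (cutadapt 1.18), dropped short ones, aligned to GRCm38 (Bowtie2 2.3.5.1) and removed non-unique and duplicate reads; BWA 0.7.12-r1039 and deepTools 3.3.0 are also named. How peaks were called, at what threshold, whether against input, and how genes were assigned is not given in the sources used here. The deposited files list, per peak, chromosome, start, end and a gene name, in other words positions, with no count, signal or score.

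The 3 lists were grouped by their labels, 1 library each. Genes, transcription starts and exons came from GENCODE M21 (GRCm38) and nearest starts from RefSeq. A peak was inside a gene with at least 1 bp of overlap, near a start within 2 kb, and multi-copy when its 32-base words had a median of 2 or more copies. Intervals are Wilson or exact Poisson (95%). Overlap code was tested on simulated intervals. Every gene is counted. The naming rule took members with a shared or near-start peak, the 3 with most peaks per class, and those without peaks; other members named were added after their values were seen. Members, lists and rules were drawn up with earlier results of these data known, although no peak enters the rule for members. Alternatives were name or position, wider peaks, equal list lengths, single-copy peaks and other windows. Python 3.11.15, pandas 2.3.3, scipy 1.17.1 and numba 0.67.0 were used. Some items are not reported here.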

Additional observations from a re-analysis of the deposited data

How the results depend on the processing

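No paired analysis was possible because each group is 1 library and no test was run, and for the same reason no replicate could be left out. Of 88 recomputed values, 25 moved, meaning by more than 1.5 times for a count or outside the 95% interval for a density, and 63 did not. Inside their intervals but past 1.5 times were the control ZHX1 densities of DNA methylation genes without Dnmt3a, 0.762, and of remodellers by name, 1.22. Among the widest peaks at equal list lengths, the Zhx1-KO hnRNPA1 list named 20 of the genes with 28 peaks, equal to the 20 of the control hnRNPA1 list, 6 genes were in all 3 lists and 5 in both control lists only. Among peaks wider than the median of their list, 50 Zhx1-KO hnRNPA1, 13 control hnRNPA1 and 28 control ZHX1 peaks named the genes, the control lists named 9 (hnRNPA1) and 14 (ZHX1), and 5 had a control hnRNPA1 peak near a start. Around the gene start alone, 10 genes had a Zhx1-KO hnRNPA1 peak, 2 a control hnRNPA1 peak and 4 a control ZHX1 peak, and 5 had a control hnRNPA1 peak within 1 kb of any start. Requiring an overlap of at least 50% of the shorter peak left 3 overlaps between the control lists and 1 between Zhx1-KO hnRNPA1 and control ZHX1 peaks. Wider peaks alone left 3 between the control lists and 1 between Zhx1-KO hnRNPA1 and control ZHX1 peaks. Centres within 1 kb gave 3 control hnRNPA1 peaks near Zhx1-KO hnRNPA1 peaks and 7 Zhx1-KO hnRNPA1 peaks near control ZHX1 peaks, and single-copy peaks alone gave 0 overlaps of the first kind and 1 of the second. Remodellers had 0.885 control hnRNPA1 peaks per 100 kb by name. By peaks near a start, 3 genes were in all 3 lists and 3 in both control lists only. The cause of these shifts was not tested. Leaving a gene out of the deacetylases and of the DNA methyltransferases was chosen after seeing the data. Depth is unknown, so a missing peak sets no limit on binding.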
